A study of Mus musculus with 12 samples.

Results

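The fatty acid desaturases and elongases were followed in mouse liver through 9 genes, the desaturases Scd1, Scd2, Fads1 and Fads2 and the elongases Elovl1, Elovl2, Elovl3, Elovl5 and Elovl6. They were taken by symbol from a deposited table of 15846 genes, as a list chosen with earlier results of these data known. All 9 passed the filter on low counts that left 14736 genes for testing. Livers came from 12 C57BL/6 mice aged 5 months, 3 in each of 4 groups, and were measured by RNA sequencing. The groups were wild type (WT) on chow, Shp Hep-/- on chow, WT on the diet labelled HFCF, and Shp Hep-/- on HFCF. Shp Hep-/- mice (KO below) lack Shp in hepatocytes, and Shp is the nuclear receptor corepressor encoded by Nr0b2. The sources used here do not give the Cre driver, the sex of the mice, or what HFCF contains and how long it was fed.

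Desaturases and elongases sit in the endoplasmic reticulum and modify fatty acids as coenzyme A esters. Scd1 and Scd2 place the first double bond into saturated chains, mostly yielding oleate and palmitoleate, and Scd1 is the main liver form. Fads2 and Fads1 act in turn on the dietary essential fatty acids, and Elovl5 and Elovl2 lengthen the products towards arachidonate and docosahexaenoate. Elovl6 takes palmitate to stearate, Elovl3 and Elovl1 make longer saturated and monounsaturated chains, and the liver transcription factors SREBP-1c, LXR and PPARalpha are known regulators of the family.

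The bases upstream of 2 elongases that act on polyunsaturated chains are shown here because Elovl2 changed with both diet and genotype below, while Elovl5 passed neither test. Each window holds the 250 bases before the gene's RefSeq start (GRCm38.p6), 5′ to 3′ on the gene's strand. Elovl2 is at chr13:41220404-41220653 (minus strand) and Elovl5 at chr9:77917115-77917364 (plus strand). The RefSeq start differs from the gene start given below by 2 bases for Elovl2 and 1 for Elovl5. Capitals mark matches, on either strand, to the GC box GGGCGG, the NF-Y box CCAAT or the E-box CACGTG.
Elovl2: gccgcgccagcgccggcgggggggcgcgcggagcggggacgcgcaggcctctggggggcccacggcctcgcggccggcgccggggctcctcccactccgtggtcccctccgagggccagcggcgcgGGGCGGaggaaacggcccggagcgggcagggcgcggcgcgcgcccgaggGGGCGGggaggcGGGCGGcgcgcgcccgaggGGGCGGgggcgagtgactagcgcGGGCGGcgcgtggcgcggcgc
Elovl5: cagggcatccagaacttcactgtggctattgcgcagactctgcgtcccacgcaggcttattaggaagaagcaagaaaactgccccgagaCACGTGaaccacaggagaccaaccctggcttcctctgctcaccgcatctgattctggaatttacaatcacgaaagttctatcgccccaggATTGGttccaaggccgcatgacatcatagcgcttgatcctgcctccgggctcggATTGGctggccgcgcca
The Elovl2 window held 5 GC boxes, the outermost spanning bases -124 to -119 before the start and the innermost -21 to -16. The Elovl5 window held no GC box but 2 NF-Y boxes, at -71 to -67 and at -17 to -13, and 1 E-box at -161 to -156. Among all 32851 windows of this length, 32.74% held a GC box, 33.85% an NF-Y box and 6.02% an E-box. Neither window held the SREBP site TCACNCCAC (1.05% of windows) or the nuclear receptor half-site AGGTCA (14.02%), and so neither held direct repeats of that half-site. The table held windows for 5 of the 9 genes: of the other 3, Fads2 had 1 GC box, Elovl1 had 5 GC boxes with 1 NF-Y box overlapping the third of them, and Elovl6 had 1 half-site. Such matches describe letters only.

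Libraries held 13967116 to 18324134 counts. Nr0b2 was counted 317 to 837 times in WT livers and 3 to 16 times in KO livers, so every library fitted its genotype label. Hepatocyte markers were abundant throughout, with 6 of 8 listed markers tested and a summed level of 37770 to 50090 CPM. CPM here is the count adjusted to library size with edgeR's TMM factors for library composition. WT HFCF replicate 1 stood apart from its group: its counts differed from those of the other 2 livers by a chi-square, divided by its degrees of freedom, that came to 35.25 and 37.79, against 12.24 between those 2. Values without it are given where leaving it out changed a gene's call or a list's count printed below. Below, log2 fold changes carry their standard error after the ± sign, and adjusted p is edgeR's quasi-likelihood value, Benjamini-Hochberg adjusted over 14736 genes, with 0.05 as the threshold.

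Levels of different genes were compared on the deposited FPKM, which divide by gene length. Scd1 was the most abundant of the 9 in every library, at 859 ± 212 FPKM (SD, n = 3) in WT chow livers, 917 ± 164 in KO chow, 4976 ± 1816 in WT HFCF and 1431 ± 516 in KO HFCF livers. Scd1 alone made up 49.7% of the summed FPKM of the 9 genes in WT chow livers, 48.3% in KO chow, 85.4% in WT HFCF and 58.4% in KO HFCF livers. Without division by length, these shares were 63.0%, 61.8%, 91.2% and 71.0%, again highest in WT HFCF livers. It took 1.83% to 3.42% of all counts in WT HFCF libraries, against at most 0.922% in any other library.
Below Scd1 came Elovl5, Fads2, Elovl2, Elovl3 and Fads1, with group means of 57.7 to 358 FPKM. Elovl5 and Fads2 overlapped in all groups except KO chow, where Fads2 was higher. Elovl2 and Elovl3 overlapped only in WT chow livers, where Elovl3 ranged from 99.1 to 225 FPKM, and Elovl3 and Fads1 only in KO HFCF livers. Elovl6 and Elovl1 overlapped each other in all 4 groups, with means of 5.98 to 8.81 FPKM. Scd2 was lowest in every group, at 1.04 to 2.38 FPKM on average.

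**Figure D1:**
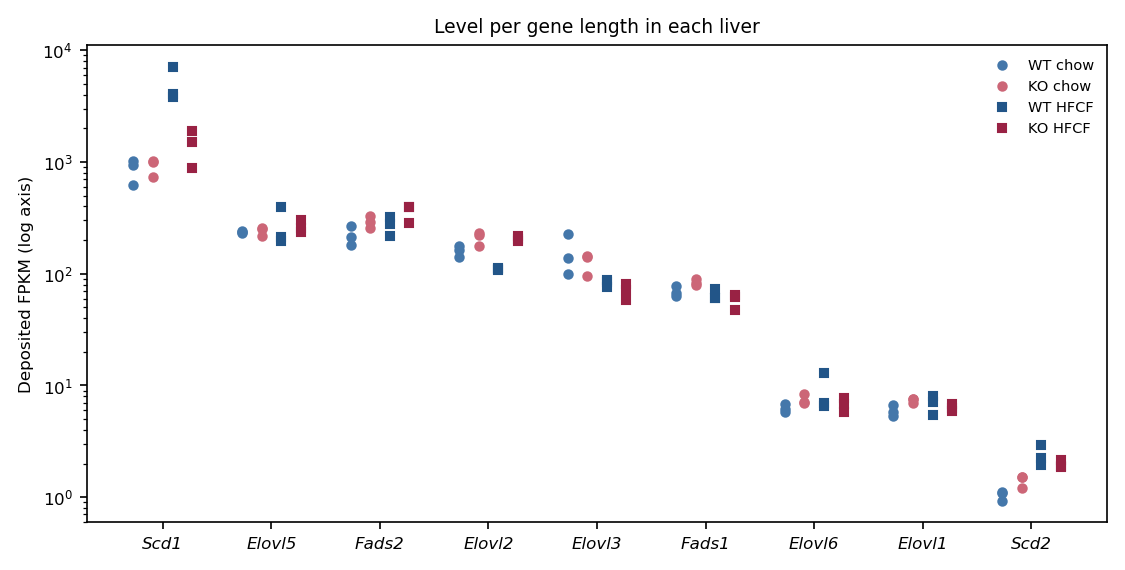
Deposited FPKM (vertical log axis) of the 9 genes in each of the 12 livers, by group. Scd1 lies highest in every group and Scd2 lowest, and the 3 WT HFCF livers lie above all others for Scd1 (3792 to 7066 FPKM).

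Between diets in WT livers, 4 of the 9 genes changed: Scd1 and Scd2 rose, and Elovl2 and Elovl3 fell. In that comparison 13.7% of all tested genes were called and 31.1% had groups that did not overlap, and the same 4 of 9 had non-overlapping groups. In KO livers, 0 of 9 passed edgeR's test between diets (2.65% of all genes did), although at an unadjusted p under 0.05 there were 2 higher and 2 lower, against 17.9% of all genes. DESeq2 called Scd2 and Fads1, and so did edgeR without WT HFCF replicate 1. Scd2, Fads1 and Elovl3 had non-overlapping groups there, against 24.4% of all genes.
Between genotypes on chow, 0 of 9 passed edgeR's test (15.5% of all genes did). At an unadjusted p under 0.05, 2 were higher and 0 lower in this comparison, against 30.4% of all genes. DESeq2 called Elovl2, and 4 of 9 (Scd2, Fads1, Elovl1 and Elovl6) had non-overlapping groups, all higher in KO, against 36.1% of all genes. Between genotypes on HFCF, Scd1 was lower and Elovl2 higher in KO, which were also the only 2 of the 9 whose groups did not overlap. The shares over all genes were 19.1% called and 34.2% not overlapping. For the interaction, the difference between the diet effects of the 2 genotypes, 0 of 9 passed edgeR's test (0.794% of all genes did). At an unadjusted p under 0.05, 1 was positive and 2 were negative, against 13.2% of all genes. DESeq2 called Scd1 and Elovl2. Median log2 fold changes of the 9 genes were 0.17 and 0.04 for diet in WT and in KO, 0.22 and -0.12 for genotype on chow and on HFCF, and -0.32 for the interaction. Those of all genes were between -0.003 and 0.02. The comparisons share groups and are not independent of each other.

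**Figure D2:**
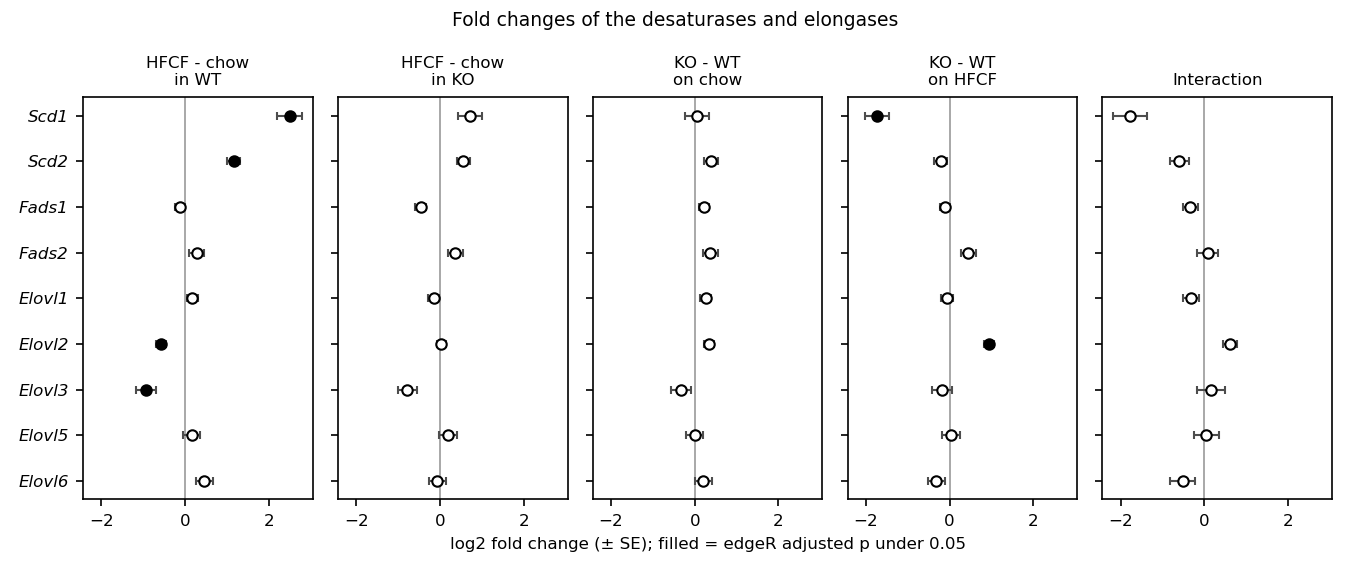
Log2 fold change (horizontal axis, ± SE) of each gene in the 5 comparisons, filled where edgeR's adjusted p was under 0.05. Filled points are Scd1, Scd2, Elovl2 and Elovl3 for HFCF against chow in WT, and Scd1 and Elovl2 for KO against WT on HFCF.

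Scd1 (ENSMUSG00000037071, mm10 chromosome 19, 44394451 to 44407709, minus strand), the main liver desaturase for oleate, measured 4923, 3047 and 4614 CPM in the chow-fed WT group and 4897, 3527 and 4578 CPM in the chow-fed KO group. The WT livers on HFCF reached 33771, 18412 and 19078 CPM, those of KO mice 9602, 4310 and 7517 CPM. All 3 WT HFCF livers were thus above every other liver, and the KO HFCF livers overlapped those of both chow groups.
In WT the diet raised Scd1 5.66-fold, or 2.50 ± 0.30 on the log2 scale (edgeR adjusted p = 0.000187). In KO the difference was 0.72 ± 0.29 (edgeR adjusted p = 0.201). The interaction was -1.78 ± 0.41 and missed edgeR's threshold (adjusted p = 0.0607), while DESeq2 gave an adjusted p of 0.0199. Genotypes did not differ detectably on chow (0.05 ± 0.28, edgeR adjusted p = 0.935). Under HFCF Scd1 fell by 1.73 on the log2 scale in KO against WT (± 0.29, edgeR adjusted p = 0.00113), a 3.33-fold difference. Without WT HFCF replicate 1, the highest liver, the diet effect in WT was 2.16 (edgeR adjusted p = 0.000333) and the genotype effect on HFCF -1.39 (edgeR adjusted p = 0.00248).

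Scd2 (ENSMUSG00000025203, chromosome 19, 44293676 to 44306864, plus strand), the form prominent in brain, lies on the same chromosome as Scd1. Its levels were 5.94, 5.17 and 6.15 CPM in WT chow livers, 6.48, 8.28 and 7.88 in KO chow, 15.9, 12.3 and 10.2 in WT HFCF, and 10.9, 10.3 and 11.98 in KO HFCF livers. All HFCF livers lay above all chow livers, and on HFCF the genotypes overlapped.
The diet raised Scd2 2.23-fold in WT (1.16 ± 0.16 on the log2 scale, edgeR adjusted p = 0.000576) and differed by 0.56 ± 0.16 in KO (edgeR adjusted p = 0.0744). The difference in KO passed the test without WT HFCF replicate 1 (adjusted p = 0.026) or WT HFCF replicate 3 (adjusted p = 0.0439), libraries that enter that edgeR fit through the shared spread. Its interaction was -0.60 ± 0.23 (edgeR adjusted p = 0.258). Genotype differences were 0.39 ± 0.17 on chow (adjusted p = 0.14) and -0.21 ± 0.15 on HFCF (adjusted p = 0.377), by edgeR.
Scd1 and Scd2 transcripts share an exact run of 147 bases, and how reads that match both were counted was not given in the sources used here. Scd2 counts amounted to 1.21 to 1.70 per 1000 Scd1 counts in WT chow livers, 1.32 to 2.35 in KO chow, 0.471 to 0.669 in WT HFCF and 1.14 to 2.40 in KO HFCF livers. Scd2 values are uncertain to the extent that Scd1 reads were assigned to it. The same applies to Scd4, a further copy that shares a run of 116 bases with Scd1 and had 1 to 6 counts in chow livers, 27, 13 and 12 in WT HFCF and 4, 1 and 7 in KO HFCF livers. Scd4 passed the filter on low counts only through the WT HFCF livers (1.54, 0.904 and 0.773 CPM, at most 0.414 in any other liver). Its 2 calls both involve that group, so the filter partly set their outcome and they serve as description only. Scd4 was higher with the diet in WT (2.66 ± 0.58, edgeR adjusted p = 0.00778) and lower in KO on HFCF (-2.03 ± 0.52, edgeR adjusted p = 0.0127). The second call was lost without WT HFCF replicate 1 (-1.66, edgeR adjusted p = 0.0565). Per 1000 Scd1 counts, Scd4 had 0.0371 ± 0.0185 counts in WT chow, 0.0672 ± 0.0459 in KO chow, 0.045 ± 0.0043 in WT HFCF and 0.033 ± 0.0182 in KO HFCF livers (SD, n = 3), and the ranges of all 4 groups overlapped. Scd3, which shares the longest run with Scd1 (185 bases), did not pass the filter, with 0 to 3 counts in chow livers, 37, 7 and 9 in WT HFCF and 5, 1 and 5 in KO HFCF livers. The part of Scd1 reads in the Scd4 and Scd3 counts was not tested.

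**Figure D3:**
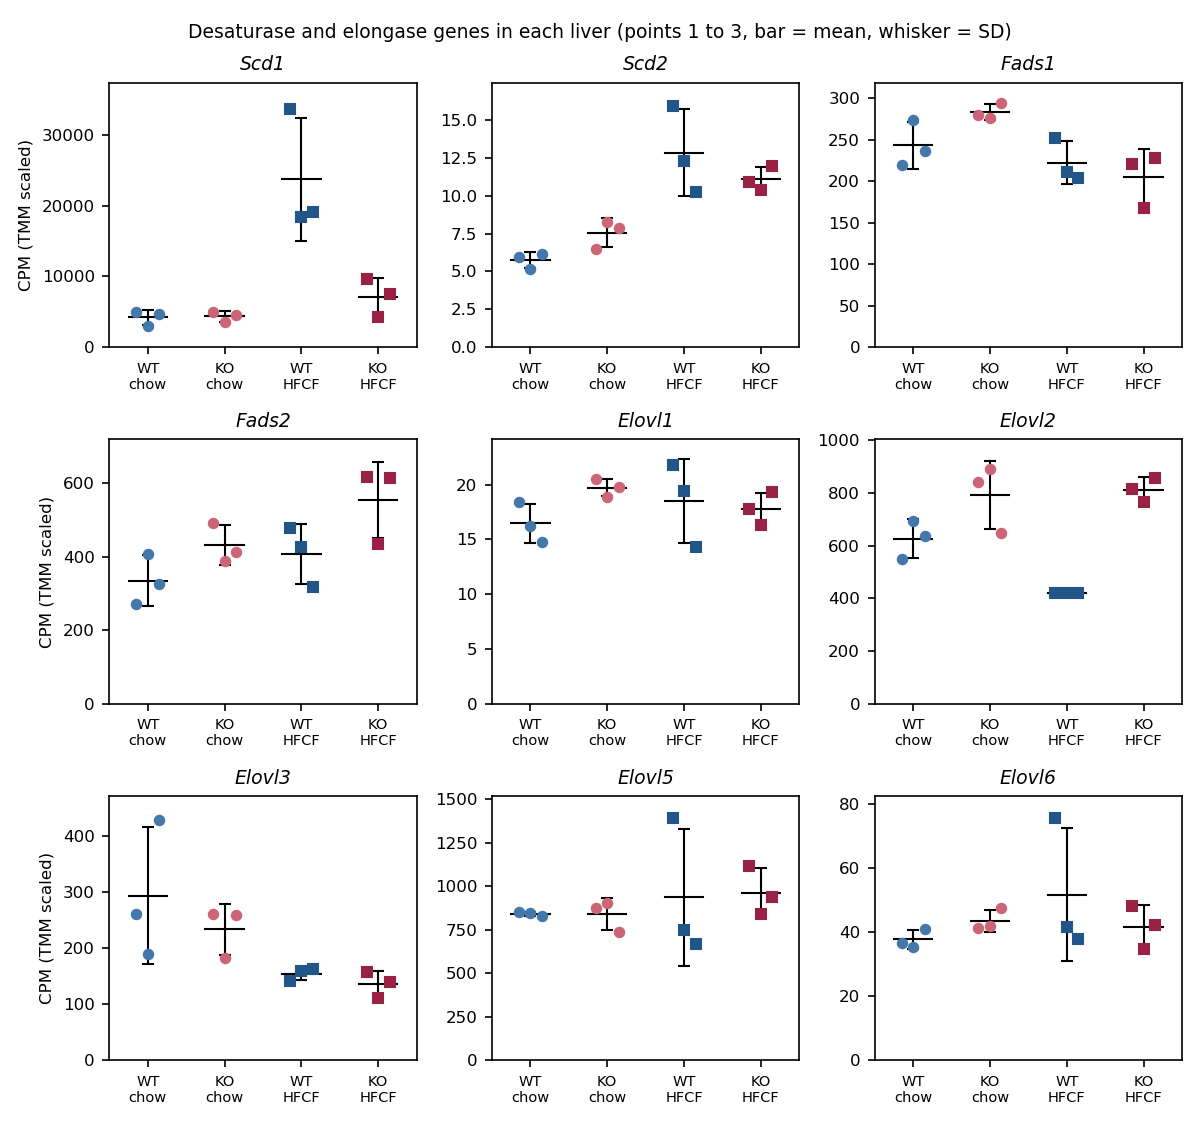
TMM-scaled CPM of each gene in each liver (points), with the group mean (bar) and SD (whisker), 3 livers a group and axes from 0. Scd1 is highest in WT HFCF livers (18412 to 33771 CPM), and Elovl2 is lowest there (419 to 421 CPM).

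Fads1 and Fads2 stand close together on chromosome 19. Fads2 (ENSMUSG00000024665, 10064164 to 10101503, minus strand) performs the initial desaturation of the essential fatty acids. Its levels were 272, 409 and 325 CPM in WT chow livers, 493, 389 and 414 in KO chow, 478, 426 and 318 in WT HFCF, and 616, 436 and 614 in KO HFCF livers. Neighbouring groups overlapped, and no comparison passed edgeR's test: log2 differences between diets were 0.28 ± 0.18 in WT (adjusted p = 0.328) and 0.36 ± 0.18 in KO (adjusted p = 0.31). Between genotypes they were 0.37 ± 0.18 on chow (adjusted p = 0.187) and 0.45 ± 0.18 on HFCF (adjusted p = 0.101), by edgeR.
Fads1 (ENSMUSG00000010663, 10182888 to 10196870, plus strand) performs the later desaturation that completes arachidonate. Its levels were 219, 274 and 236 CPM in WT chow livers, 279, 276 and 294 in KO chow, 252, 211 and 204 in WT HFCF, and 221, 167 and 228 in KO HFCF livers. KO chow livers were above all others, narrowly so for the highest WT chow liver. The diet difference in KO was -0.46 ± 0.12 (edgeR adjusted p = 0.0602, 0.0336 without WT HFCF replicate 1, and DESeq2 adjusted p = 0.00985), and in WT -0.13 ± 0.12 (edgeR adjusted p = 0.533). The interaction was -0.34 ± 0.17 for Fads1 (adjusted p = 0.435) and 0.08 ± 0.25 for Fads2 (adjusted p = 0.938), by edgeR. Genotype differences were 0.22 ± 0.12 on chow (adjusted p = 0.247) and -0.12 ± 0.12 on HFCF (adjusted p = 0.57), by edgeR.
The ratio of Fads2 to Fads1 counts within a library, which does not depend on library scaling, was 1.24, 1.49 and 1.37 in WT chow livers and 1.77, 1.41 and 1.41 in KO chow livers. It was 1.90, 2.02 and 1.56 in WT HFCF and 2.79, 2.61 and 2.70 in KO HFCF livers. The 3 KO HFCF livers lay above all others with little spread (2.70 ± 0.09, SD, n = 3). The ratio was chosen after earlier results of these data were known and carries no test.

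Elovl2 (ENSMUSG00000021364, chromosome 13, 41182495 to 41220405, minus strand), the elongase needed for docosahexaenoate, measured 547, 694 and 635 CPM in the chow-fed WT group and 840, 890 and 646 CPM in the chow-fed KO group. Under HFCF the WT livers read 421, 419 and 421 CPM, the KO livers 814, 765 and 858 CPM. WT HFCF livers were the lowest of all and close to one another, and KO HFCF livers lay within the range of KO chow livers.
With the diet Elovl2 fell by 0.57 on the log2 scale in WT (± 0.12, edgeR adjusted p = 0.00621), a 1.49-fold difference. In KO the difference was 0.04 ± 0.12 (edgeR adjusted p = 0.914). The interaction of 0.61 ± 0.17 did not pass edgeR's test (adjusted p = 0.108), but DESeq2 gave an adjusted p of 0.0199. On HFCF Elovl2 was 1.93-fold higher in KO (0.95 ± 0.12, edgeR adjusted p = 0.000114), and without WT HFCF replicate 1 this value was the same at 0.95 (edgeR adjusted p = 0.000331). On chow the genotype difference of 0.34 ± 0.12 missed the threshold (edgeR adjusted p = 0.0637), and it passed in DESeq2 (adjusted p = 0.0385) and in edgeR without KO chow replicate 3 (0.47, adjusted p = 0.014).
Elovl5 (ENSMUSG00000032349, chromosome 9, 77917364 to 77984519, plus strand) lengthens the products of Fads2. Its levels were 851, 844 and 830 CPM in WT chow livers, 875, 905 and 735 in KO chow, 1391, 749 and 666 in WT HFCF, and 1114, 838 and 938 in KO HFCF livers. WT HFCF replicate 1 was above every other liver, whereas the other 2 of its group were below all WT chow livers. The diet difference in WT was 0.15 ± 0.21 (edgeR adjusted p = 0.678) and turned to -0.25 without that library (edgeR adjusted p = 0.247). The genotype difference on HFCF was 0.04 ± 0.21 (edgeR adjusted p = 0.919) and became 0.44 without it (edgeR adjusted p = 0.0241). Whether Elovl5 was called there thus depended on 1 liver, and with all livers it was not called. In KO the diet difference was 0.20 ± 0.21 (edgeR adjusted p = 0.67), on chow the genotypes differed by -0.01 ± 0.21 (edgeR adjusted p = 0.991), and the interaction was 0.05 ± 0.30 (edgeR adjusted p = 0.971).

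Elovl3 (ENSMUSG00000038754, chromosome 19, 46131897 to 46135694, plus strand) extends saturated and monounsaturated chains and is known in mouse liver for its daily rhythm. Chow-fed WT livers had 262, 190 and 429 CPM, chow-fed KO livers 260, 181 and 258 CPM. Levels were lower under HFCF, with 142, 158 and 162 CPM for WT, 157, 111 and 140 CPM for KO, and no overlap with chow in either genotype. With the diet it fell by 0.93 on the log2 scale in WT (± 0.23, edgeR adjusted p = 0.0186). That call was lost without WT chow replicate 3, the highest liver (-0.55, edgeR adjusted p = 0.0822), and without WT HFCF replicate 1 (-0.88, edgeR adjusted p = 0.0616). The diet difference in KO was -0.78 ± 0.23 (edgeR adjusted p = 0.0903, but 0.0459 and 0.0269 without WT chow replicate 2 or 3), and the interaction 0.15 ± 0.33 (edgeR adjusted p = 0.9). Genotype differences were -0.33 ± 0.23 on chow (adjusted p = 0.363) and -0.18 ± 0.23 on HFCF (adjusted p = 0.658), by edgeR. The hour at which livers were taken was not given in the sources used here, and its part was not tested. Elovl3 shares 10 exon bases with Pitx3 on the other strand, which had 14 to 93 counts against 1591 to 6203 for Elovl3.

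Elovl6 (ENSMUSG00000041220, chromosome 3, 129532386 to 129638495, plus strand), which takes palmitate to stearate, had levels of 36.8, 35.5 and 41.0 CPM in WT chow livers, 41.2, 42.0 and 47.6 in KO chow, 75.7, 41.7 and 37.8 in WT HFCF, and 48.3, 34.8 and 42.1 in KO HFCF livers. Only WT HFCF replicate 1 stood far from the rest. The diet difference in WT was 0.46 ± 0.21 (edgeR adjusted p = 0.158), 0.08 without that library, and 0.64 without WT HFCF replicate 3, where it was called (edgeR adjusted p = 0.0428). The genotype difference on HFCF was -0.32 ± 0.20 (edgeR adjusted p = 0.323) and 0.07 without it. In KO the diet difference was -0.06 ± 0.21 (adjusted p = 0.915), the genotype difference on chow 0.21 ± 0.21 (adjusted p = 0.538) and the interaction -0.52 ± 0.29 (adjusted p = 0.477), by edgeR.
Elovl1 (ENSMUSG00000006390, chromosome 4, 118428093 to 118432953, plus strand), which makes very long saturated chains for sphingolipids, had levels of 18.4, 16.2 and 14.8 CPM in WT chow livers, 20.5, 18.9 and 19.8 in KO chow, 21.8, 19.4 and 14.3 in WT HFCF, and 17.7, 16.3 and 19.3 in KO HFCF livers. Its log2 differences were between -0.15 and 0.26 in the 4 comparisons of groups, its lowest edgeR adjusted p there was 0.212, and the interaction was -0.32 ± 0.19 (edgeR adjusted p = 0.516). It shares 53 exon bases with Cdc20 on the other strand, which had 3 to 34 counts.

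Within libraries, the balance between the genes moved as follows. Elovl2 counts per Elovl5 count were 0.303 to 0.631 in WT HFCF livers, below 0.644 to 0.823 in WT chow, 0.880 to 0.983 in KO chow and 0.731 to 0.915 in KO HFCF livers. Its lowest value belonged to WT HFCF replicate 1. Elovl6, which supplies stearate to Scd1, had 7.47 to 11.6 counts per 1000 Scd1 counts in WT chow livers and 8.42 to 11.9 in KO chow livers, but 1.98 to 2.27 in WT HFCF and 5.03 to 8.08 in KO HFCF livers. WT HFCF livers were thus apart from the other groups in both ratios, narrowly so in the first (0.631 against 0.644 in WT chow). In the second the denominator, Scd1, rose 5.66-fold with the diet in WT, where Elovl6 was not called by edgeR (log2 0.46). Neither ratio carries a test.

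**Figure D4:**
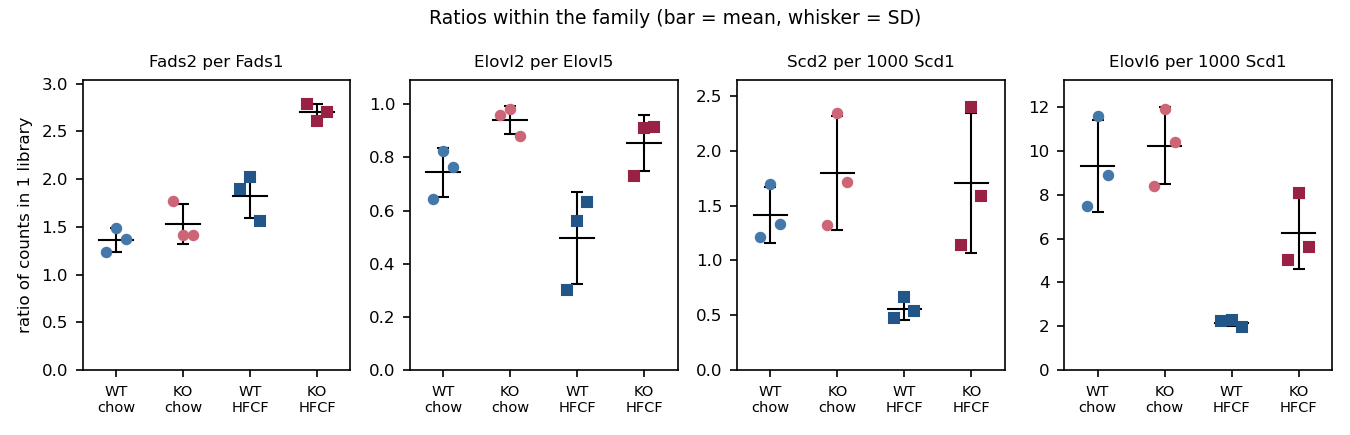
Ratios of counts between pairs of the genes in each liver (points), with the group mean (bar) and SD (whisker), 3 livers a group. The Fads2 to Fads1 ratio is highest in KO HFCF livers (2.61 to 2.79), and the other 3 ratios are lowest in WT HFCF livers.

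Across the 12 livers, which share the 4 groups, log2 CPM of Scd1 had a Pearson r of 0.799 with Scd2, 0.625 with Elovl6 and -0.741 with Elovl2. Elovl5 and Elovl6 had 0.753, a pair in which WT HFCF replicate 1 was highest for both, and Scd2 and Elovl3 had -0.721. Fads1 and Fads2 had 0.081. Genes with provisional symbols, such as Gm numbers, were passed over in the following ranking. Among the 11569 other genes left with at least 1 CPM on average, those whose pattern was most like Scd1 were Ces2e (r = 0.973), Immp2l (0.967) and Themis (0.958). For Scd2 they were Prnp (0.979), Slc13a3 (0.958) and Slc44a3 (0.957), and for Elovl2 Dact2 (0.976), Scamp1 (0.965) and Prep (0.962). For Elovl3 they were Asap2 (0.941), Pitx3 (0.929), its overlapping neighbour, and Rps10 (0.927).

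Among 14 regulators of the family, 4 rose and 2 fell with the diet in WT (4 and 3 without WT HFCF replicate 1), with a median log2 fold change of 0.14 against 0.00 for all genes. Of all tested genes, 13.7% were called between diets in WT and 2.65% in KO, and 15.5% between genotypes on chow and 19.1% on HFCF. Srebf1, which encodes SREBP-1c, stood at 42.8 to 55.5 CPM in WT chow, 43.7 to 55.2 in KO chow, 191 to 247 in WT HFCF and 92.0 to 133 in KO HFCF livers. It rose with the diet in WT (2.27 ± 0.16, edgeR adjusted p = 2.89e-06) and in KO (1.07 ± 0.16, edgeR adjusted p = 0.00236), and was lower in KO on HFCF (-1.10 ± 0.15, edgeR adjusted p = 0.000278). Thrsp, a lipogenic gene that responds to thyroid hormone and carbohydrate, rose in WT (3.35 ± 0.43, edgeR adjusted p = 0.000322) and was lower in KO on HFCF (-2.36 ± 0.40, edgeR adjusted p = 0.00122). Scd1, Srebf1 and Thrsp were each highest in the WT HFCF group, where no liver overlapped any of another group.
Srebf2, which encodes the sterol-regulated factor SREBP-2, fell with the diet in WT (-0.90 ± 0.10, edgeR adjusted p = 0.000147) and in KO (-0.80 ± 0.10, edgeR adjusted p = 0.000834). In KO livers 1 regulator rose with the diet and 2 fell, Insig1, which retains SREBPs in the endoplasmic reticulum, being the other (-1.33 ± 0.15, edgeR adjusted p = 0.000351). Between genotypes 1 was higher and 2 lower on chow, and 1 was higher and 6 lower on HFCF. The higher one was Srebf2 on both diets, and its chow call (0.32, edgeR adjusted p = 0.0439) was lost in 11 of 20 alternatives. Pparg, a nuclear receptor that is raised in fatty liver, was lower in KO by edgeR's test on both diets, with -2.11 ± 0.29 for chow (adjusted p = 0.000405) and -2.49 ± 0.27 for HFCF (adjusted p = 4.48e-05).

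**Figure D5:**
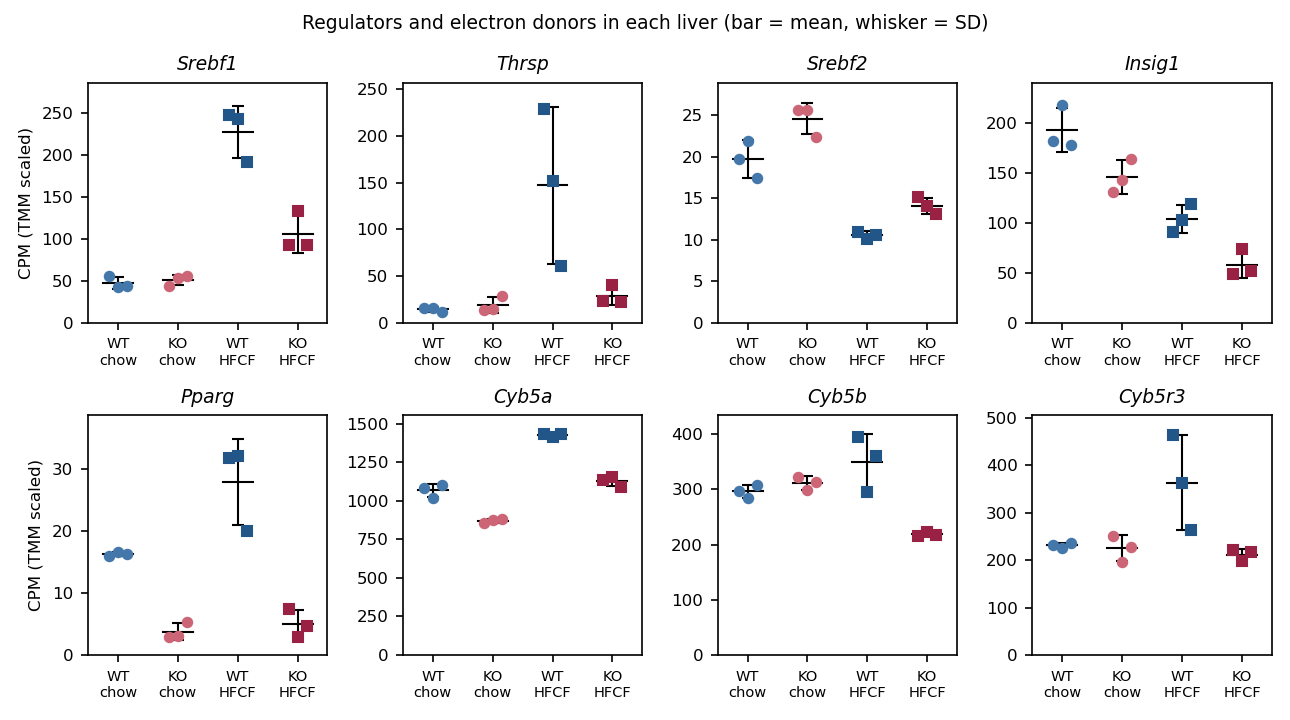
TMM-scaled CPM of regulators (Srebf1, Thrsp, Srebf2, Insig1, Pparg) and of cytochrome b5 and reductase genes (Cyb5a, Cyb5b, Cyb5r3) in each liver, with mean (bar) and SD (whisker), 3 livers a group. Srebf1 is highest in WT HFCF livers (191 to 247 CPM), and Cyb5b is lowest in KO HFCF livers (215 to 222 CPM).

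Desaturases draw electrons through cytochrome b5 and its reductases. The listed group held 5 tested genes, the mitochondrial Cyb5b among them. With the diet 2 rose and 1 fell in WT (13.7% of all tested genes were called), and 1 rose and 1 fell in KO (2.65%). In KO against WT 0 were higher and 1 lower on chow (15.5%), and 0 were higher and 3 lower on HFCF (19.1%). Cyb5a, the microsomal cytochrome b5, rose in WT (0.42 ± 0.07, edgeR adjusted p = 0.00208) and in KO (0.37 ± 0.07, edgeR adjusted p = 0.0137). It was lower in KO on HFCF (-0.34 ± 0.07, edgeR adjusted p = 0.00439) and was also the gene called lower on chow (-0.30, a call lost in 1 of 20 alternatives). The KO rise was lost without KO chow replicate 1, KO HFCF replicate 1 or KO HFCF replicate 2. Cyb5b, the mitochondrial outer membrane form, was lower in KO on HFCF (-0.68 ± 0.10, edgeR adjusted p = 0.000281), as was Cyb5r3, the reductase (-0.78 ± 0.16, edgeR adjusted p = 0.00333). Among these 5 genes, only the mitochondrial form, Cyb5b, passed the interaction test (-0.75 ± 0.13, edgeR adjusted p = 0.0341), as did 0.794% of all genes. That call was lost in 8 of 19 alternatives. A difference between the diet effects was not shown to be absent for the others. Mean Cyb5r3 levels on chow and HFCF were 232 and 364 CPM in WT, and 225 and 212 CPM in KO.

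Of 6 genes for the other steps of the elongation cycle, 1 rose and 1 fell with the diet in WT (13.7% of all tested genes were called). Between diets in KO 0 were called (2.65%), and 0 between genotypes on chow (15.5%). On HFCF 1 was higher and 1 lower in KO (19.1%). Both WT calls (Hsd17b12 up, Hacd1 down) were lost without WT HFCF replicate 1. On HFCF the lower gene, Tecr (-0.40), was not called without that library (-0.28, edgeR adjusted p = 0.0839), where 2 were higher and 0 lower, and the call of the higher gene, Hacd3 (0.30), was lost in 13 of 20 alternatives. Of 7 genes that supply palmitate, 1 rose (Acaca, acetyl-CoA carboxylase, 0.46 ± 0.09, edgeR adjusted p = 0.00521) and 1 fell (Acly, ATP citrate lyase, -0.37 ± 0.09, edgeR adjusted p = 0.0126) in WT, where 2 fell without WT HFCF replicate 1. In KO 0 rose and 2 fell, Fasn, the fatty acid synthase, by 0.75 (± 0.17, edgeR adjusted p = 0.0296) and Me1, malic enzyme, while 4 fell in the fit without WT HFCF replicate 1. The Fasn call was lost without KO chow replicate 3, KO HFCF replicate 1 or KO HFCF replicate 3, and that of Me1 in 9 of 20 alternatives. On chow 0 were higher and 1 lower in KO, Acss2, acetyl-CoA synthetase (-0.29, edgeR adjusted p = 0.0465), a call lost in 11 of 20 alternatives. On HFCF 0 were higher and 4 lower in KO, among them Me1 (-0.86, edgeR adjusted p = 0.00773) and Acss2 (-0.52, edgeR adjusted p = 0.00145), and 2 were lower without WT HFCF replicate 1. Fasn in WT differed by -0.02 ± 0.17 between diets (edgeR adjusted p = 0.966), beside the 5.66-fold rise of Scd1.
Of 8 genes that activate fatty acids or place them into phospholipids, 1 rose and 1 fell with the diet in WT. The shares over all tested genes are those given for the elongation cycle. Lpcat3, which puts polyunsaturated chains into phospholipids, rose (0.54 ± 0.11, edgeR adjusted p = 0.00492), and the gene that fell, Acsl3, was not called without WT HFCF replicate 1 or WT chow replicate 1. In KO 0 were called between diets (1 rose without WT HFCF replicate 1), and between genotypes 1 was higher and 0 lower on each diet. That gene was Acsl4, which activates arachidonate (0.45 ± 0.09 on HFCF, edgeR adjusted p = 0.00345). Its chow call (0.28, edgeR adjusted p = 0.05, just under the threshold) was lost in 14 of 20 alternatives, and that on HFCF in 0 of 20. Of 8 peroxisomal genes used in the last step to docosahexaenoate, 2 rose and 0 fell with the diet in WT, and 1 rose and 0 fell in KO (without WT HFCF replicate 1, 1 rose in WT, and 1 rose and 1 fell in KO). Between genotypes 0 were higher and 1 lower on each diet, Acaa1a, a peroxisomal thiolase. Its chow call was lost in 10 of 20 alternatives, and that on HFCF in 5, among them the fit without WT HFCF replicate 1 (-0.30, edgeR adjusted p = 0.108).
Of the related genes Scd4, Fads3 and Fads6, Fads3, whose transcript shares a run of 54 bases with Fads2, was higher in KO on HFCF (0.77 ± 0.16, edgeR adjusted p = 0.00378).

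Genes listed as cell type markers also moved, and in bulk liver fewer cells of a type and less RNA per cell cannot be told apart. Of all tested genes, 13.7% were called between diets in WT and 2.65% in KO, and 15.5% between genotypes on chow and 19.1% on HFCF. Of 7 adipocyte markers 3 were tested (Cfd, Cidec and Fabp4). The others, including the defining Adipoq and Plin1, had no entry among the 15846 genes, so the presence of fat cells was not tested. The 3 summed to 36.8 to 49.6 CPM in WT chow, 22.4 to 32.3 in KO chow, 232 to 372 in WT HFCF and 14.9 to 29.1 in KO HFCF livers. All 3 rose with the diet in WT (2 without WT HFCF replicate 1), and Scd1 was likewise highest in WT HFCF livers. Of 8 macrophage markers, 5 were higher in KO on chow and 5 on HFCF, with sums of 340 to 380 CPM in WT chow, 531 to 558 in KO chow, 319 to 646 in WT HFCF and 735 to 786 in KO HFCF livers. Without WT HFCF replicate 1, all 8 were higher in KO on each diet. Of 7 stellate cell markers, 4 rose with the diet in WT (2 without WT HFCF replicate 1) and 3 were higher in KO on chow. Of 5 cholangiocyte markers, 1 rose with the diet in WT (0 without WT HFCF replicate 1) and 1 was higher in KO on chow, and of 5 endothelial markers 1 was higher and 1 lower in KO on HFCF (1 and 0 without WT HFCF replicate 1). Of 6 hepatocyte markers, 3 fell with the diet in WT (2 without WT HFCF replicate 1). In KO 0 were higher and 1 lower on chow (0 and 2 without that library), and 1 was higher and 1 lower on HFCF (0 and 1). Their sums were lowest in WT HFCF livers, at 37770 to 41960 CPM. They were 47300 to 48670 in WT chow, 43200 to 50090 in KO chow and 45190 to 45840 in KO HFCF livers. The part of these shifts in the values of the 9 genes was not tested.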

How the data were processed

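Ribosomal RNA was removed from total liver RNA and stranded libraries were prepared, as the labels' protocols state. The authors deposited read counts as whole numbers for each Ensembl gene, per the file headers. The authors also deposited FPKM, per the file headers, each equal to the count over the gene's length and a per-library divisor. Per the submitters' processing notes, mm10 was the genome build. The sources used here do not name the aligner, counting tool or strand setting. Coordinates were shifted by 1 to 1-based starts.

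Counts were filtered with filterByExpr (minimum 10, total 15; 1110 genes removed), TMM-scaled, and tested in edgeR 4.0.16 under R 4.3.3 (glmQLFit, glmQLFTest) with 4 group means over 12 libraries. Groups and replicate numbers came from the labels. FPKM entered no test. No library pair agreed within sampling noise (chi-square per degree of freedom 12.24 to 37.79). The common biological coefficient of variation was 0.119. The alternatives changed the scaling (RLE, upper quartile), the filter (none, or at least 1 CPM in 6 libraries), the tool (DESeq2 1.42.0, voom of limma 3.58.1), the model (replicate number as a block, compared groups alone) or the libraries (each left out in turn). Those for genes outside the 9 were added after seeing the data. The members and lists were chosen with earlier results of these data known. All 9 genes are described whatever their values. From each other list up to 3 genes with the lowest adjusted p could be named, and the printed examples were picked from these after their values were seen. Likeness used log2 CPM with a prior count of 2. Cyb5a, Hacd1 and some other genes carry older symbols in the table and were matched by gene ID. On counts simulated for the diet effect in WT over 14532 genes, 95% of 100 genes changed by a log2 of 1 were recovered, and 7 of 202 calls were unchanged genes. For the interaction over 14519 genes, 78% were recovered, and 15 of 192 calls were unchanged genes. The changed genes were drawn from well-counted genes, and all other genes were left unchanged. These shares therefore do not carry over to smaller changes or to genes with few counts.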

Additional observations from a re-analysis of the deposited data

Results flagged for a closer look

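The diet effect differed between the genotypes, by edgeR's interaction test, for 5 genes of the lists outside the 9. These were 2 of 14 regulators, 1 of 5 tested cytochrome b5 and reductase genes, and 2 of 3 tested adipocyte markers. No gene of the other lists passed, and of all tested genes 0.794% did. Among regulators, log2 interactions (KO minus WT) were -1.20 for Srebf1 (SREBP-1c, edgeR adjusted p = 0.0341) and -2.76 for Thrsp (edgeR adjusted p = 0.0497). For Cyb5b, the mitochondrial cytochrome b5, the value was -0.75 (edgeR adjusted p = 0.0341). Among adipocyte markers the values were -6.89 for Cfd, also known as adipsin (edgeR adjusted p = 0.0034), and -2.62 for Cidec, a lipid droplet protein (edgeR adjusted p = 0.0401). In WT, Srebf1, Thrsp, Cfd and Cidec rose with HFCF, and of these only Srebf1 also rose in KO. Cyb5b was not called in WT (0.24, edgeR adjusted p = 0.11) and fell in KO (-0.51, edgeR adjusted p = 0.0112). The call for Cfd held in 19 of 19 alternatives. It was lost in 7 of 19 for Srebf1, 8 for Cyb5b, 9 for Cidec and 13 for Thrsp, whose value without WT HFCF replicate 1 was -2.28 (edgeR adjusted p = 0.0693). None of the 9 desaturases and elongases passed this test in edgeR, and Scd1 came nearest (-1.78, adjusted p = 0.0607).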

How the results depend on the processing

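Of 120 alternative values for the 6 called changes of the 9 genes, 118 kept direction and call, the other 2 being those of Elovl3. Of 771 values for the 39 changes not called, 20 were called and 24 had the other direction. For genes of the other lists, 1562 of 1853 values kept the call and 0 reversed. Among the 9 genes the count called between diets in KO, 0 in the edgeR fit, was 2 in DESeq2, 1 in limma voom, 3 with the compared groups alone and 0 to 2 without single libraries (2 without WT HFCF replicate 1). Between genotypes on chow it was 1 in DESeq2 and 0 to 1 without single libraries, and for the interaction 2 in DESeq2.
Deviations from the group means had correlations of -0.148 to 0.167 between same-numbered libraries. Differently numbered libraries were not compared, so these values cannot decide whether the numbers pair the livers. With the replicate block 2 were called between diets in KO, Scd1 (0.66, edgeR adjusted p = 0.039) and Elovl3 (-0.77, edgeR adjusted p = 0.0456), and 1 in the interaction, Scd1 (-1.82, edgeR adjusted p = 0.00379).
Without single libraries, some log2 fold changes that were not called changed sign: between diets in WT Elovl5 (-0.25 to 0.35), and in KO Elovl2 (-0.091 to 0.128) and Elovl6 (-0.167 to 0.044). Between genotypes on chow these were Scd1 (-0.15 to 0.17), Elovl3 (-0.576 to 0.046) and Elovl5 (-0.065 to 0.080, and 0.006 with upper quartile scaling and 0.005 with the stricter filter). On HFCF they were Elovl1 (-0.215 to 0.080), Elovl5 (-0.15 to 0.44) and Elovl6 (-0.499 to 0.068), and for the interaction Fads2 (-0.10 to 0.21), Elovl3 (-0.23 to 0.37) and Elovl5 (-0.15 to 0.45). Not all of these were near 0 in the edgeR fit of all libraries. Between genotypes, Elovl3 on chow stood at -0.33 ± 0.23 and Elovl6 on HFCF at -0.32 ± 0.20. The cause was not tested.
Over all genes, calls between diets in WT were 2013, but 1255, 1100 and 1303 without WT chow replicate 1, WT chow replicate 3 or WT HFCF replicate 1. In KO they were 390, against 656 in DESeq2, 603 with the compared groups alone and 157 to 776 without single libraries. On chow they were 2289, and 1152 and 1442 without WT chow replicate 3 or KO chow replicate 2. For the interaction they were 117, against 344 in DESeq2 and as few as 11 without KO HFCF replicate 2. With 3 mice a group, a difference that misses the threshold was not shown to be absent.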
